A study of Mus musculus with 28 samples.

Results

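Genes of the type I interferon response were followed in the amygdala of female mice that drank water or alcohol, namely *Stat2*, *Irf7*, *Irf9*, *Ifih1*, *Isg15*, *Oasl2*, *Bst2*, *Rtp4* and *Usp18*. They were chosen by symbol, as 9 of the 49477 genes that the count tables of both batches list, and all 9 were found in both. The mice were adult C57BL/6J females of 2 independent batches, and RNA came from bilateral micropunches aimed at the basolateral and central amygdala. All were housed singly and drank from a pair of tubes. The 10 Water mice were given water alone for about a month, the 9 Acute mice were given a choice of 20% ethanol or water on the last day only, and the 9 Chronic mice were given that choice every other day. Brains were taken the morning after the last session. The mice numbered 33 to 43 formed the first batch (4 Water, 4 Acute, 3 Chronic), and those numbered from 1 to 6 in each group formed the second (6 Water, 5 Acute, 6 Chronic).

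Type I interferons are secreted antiviral cytokines that bind the receptor made of *Ifnar1* and *Ifnar2*. The kinases *Jak1* and *Tyk2* then activate STAT proteins, and *Stat2* joins *Irf9* in a complex called ISGF3. This complex binds a DNA element made of repeated GAAA letters and switches on interferon-stimulated genes, many of which it also keeps at a low level without infection. In the brain, microglia, astrocytes, endothelial cells and neurons can all respond. *Stat2* and *Irf9* encode parts of ISGF3, *Irf7* a transcription factor that amplifies interferon production, and *Ifih1* the double-stranded RNA sensor MDA5. *Isg15* encodes a ubiquitin-like protein, *Oasl2* a protein of the oligoadenylate synthetase family, *Bst2* the membrane protein tetherin that holds virus particles at the cell surface, and *Rtp4* a receptor transporter protein that interferon induces. *Usp18* encodes the enzyme that removes ISG15 from proteins and also dampens signaling at the receptor.

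Letters of the element through which ISGF3 acts were found upstream of *Isg15*, *Bst2* and *Stat2*. RefSeq promoters of GRCm38.p6 were in hand for 7 of the 9 genes, all except *Rtp4* and *Usp18*. The 250 bases before the start were searched on both strands for 2 copies of GAAA that are 2 bases apart, with overlapping matches counted. The motif was present for 3 of the 7 genes and not for *Ifih1*, *Oasl2*, *Irf7* or *Irf9*, set against 3.463% of the 27025 genes with a promoter in the table. *Isg15* held 3 overlapping copies on the gene's strand, between 78 and 57 bases before its start, and *Bst2* held 2 between 130 and 115 bases before its start. *Stat2* held 1, between 222 and 213 bases before its start and on the other strand, so that it reads as TTTC copies. A match is a description of the letters and not of binding. The stretches are shown 5′ to 3′ on the strand of the gene, with the matches in capitals. They lie at chr4:156200845-156200926 on the minus strand for *Isg15*, chr8:71537557-71537632 on the minus strand for *Bst2* and chr10:128270248-128270315 on the plus strand for *Stat2*.
Isg15: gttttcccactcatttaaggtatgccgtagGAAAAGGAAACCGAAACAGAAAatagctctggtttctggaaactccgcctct
Bst2: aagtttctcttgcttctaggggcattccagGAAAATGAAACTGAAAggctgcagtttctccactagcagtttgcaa
Stat2: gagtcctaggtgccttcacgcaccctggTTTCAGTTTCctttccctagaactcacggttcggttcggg

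Libraries held between 20004380 and 22569562 estimated counts. Levels are given as normalized counts, which are counts scaled by edgeR's TMM method to a common library size, or as log2 CPM (counts relative to library size) minus the mean of the mouse's batch. Per kilobase of merged exon in the 10 Water mice, *Stat2* was the most abundant, at 85.5 ± 5.84 normalized counts (SD, n = 10), above 50.5% of the genes tested. *Irf9* followed at 41.0 ± 4.12, *Bst2* at 37.1 ± 18.2, *Isg15* at 23.9 ± 9.81 and *Rtp4* at 17.1 ± 3.26. *Oasl2* at 8.39 ± 1.08, *Ifih1* at 8.33 ± 2.21 and *Irf7* at 8.14 ± 2.01 could not be ordered, and *Usp18* was last at 2.87 ± 1.75, above 1.59% of the genes tested. The ranges of neighbours in this order overlapped except between *Stat2* and *Irf9* and between *Rtp4* and *Oasl2*. The place of *Bst2* depended on the batch, with 56.9 ± 9.29 (n = 4) in the first, above *Irf9* at 41.3 ± 2.84, and 23.8 ± 4.49 (n = 6) in the second, near *Isg15* at 22.2 ± 9.73.

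Counting error set a floor under most of these values. Mean counts over the 28 mice were 489 for *Stat2*, 219 for *Irf9*, 67.2 for *Ifih1*, 60.0 for *Oasl2*, 36.5 for *Rtp4*, 34.8 for *Bst2*, 31.0 for *Irf7*, 18.8 for *Isg15* and 9.71 for *Usp18*. A mean of at least 10 counts was required for the tests across genes, and 8 of the 9 reached it. Within groups and batches the coefficient of variation of *Irf7* was 19.9%, where counting alone gives 18.0%, and that of *Oasl2* was 15.6%, where counting gives 12.9%. *Bst2* varied most beyond counting, by 37.5% against 17.1%, and its ratio of variance to mean was 4.80, above that of 89.2% of the 1000 genes nearest to it in level. *Isg15* stood at the percentile 83.4, *Usp18* at 82.4 and *Ifih1* at 76.6 on that scale, while *Rtp4* stood at 29.6, *Oasl2* at 25.1 and *Irf7* at 17.3.

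Batch differences passed the test for 3 of the 8 genes. *Bst2* was lower in the second batch by a log2 difference of -0.97 (SE 0.18, adjusted p = 8.06e-05), *Ifih1* by -0.40 (SE 0.12, adjusted p = 0.0054) and *Rtp4* by -0.28 (SE 0.11, adjusted p = 0.0428), in edgeR's quasi-likelihood test with Benjamini-Hochberg adjustment over all 16266 genes tested. The other 5 genes tested did not pass it. These 3 of 8 compare with 24.3% of all genes tested that were lower and 22% that were higher in the second batch. The gene identifiers of the first table are all those of the GENCODE M21 annotation, whereas 253 of the 51073 in the second are not in it and 773 carry another version number. Of the 9 genes, *Isg15* had another version in the second table. The part of the annotation in the batch differences was not tested. Drinking groups were compared with batch as a covariate.

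No interferon response gene was called in any comparison of the drinking groups, at an adjusted p under 0.05 in edgeR's quasi-likelihood test. Of all genes tested, 0% were called between Acute and Water mice, 0.0184% between Chronic and Water mice and 0% between Chronic and Acute mice. DESeq2's default filter on mean counts left few members with an adjusted p against Water, 1 of 8 with batch as a covariate and, after ComBat-seq, 4 of 9 in Acute and 1 of 9 in Chronic mice. With that filter off, a setting chosen after the values were seen, all had one and DESeq2 called 0 of them in each comparison by either route. At an unadjusted p under 0.05 it found 0 in Acute and 2 in Chronic mice against Water, by both routes. The shares of all genes at that p in DESeq2 were 9.4% in Acute and 10.2% in Chronic mice with batch as a covariate, and 10.2% and 11.1% after ComBat-seq. Both comparisons with Water share the same Water mice. At an unadjusted p under 0.05, 1 of the 8 genes was higher and 0 lower in Acute mice, against 5.07% and 4.45% of all genes tested. In Chronic mice 1 was higher and 1 lower than in Water mice, against 4.81% and 5.65%. Between Chronic and Acute mice there was none in either direction, against 1.95% and 2.5%. The median log2 fold change of the 8 genes was 0.033 in Acute and -0.045 in Chronic mice against Water, and -0.080 in Chronic against Acute mice, where the medians of all genes tested were 0.0011, 0.0022 and -8.9e-04. Fold changes against Water were positive for 6 of the 8 in Acute mice and for 3 of the 8 in Chronic mice, beside 50.6% and 51% of all genes tested.

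**Figure D1:**
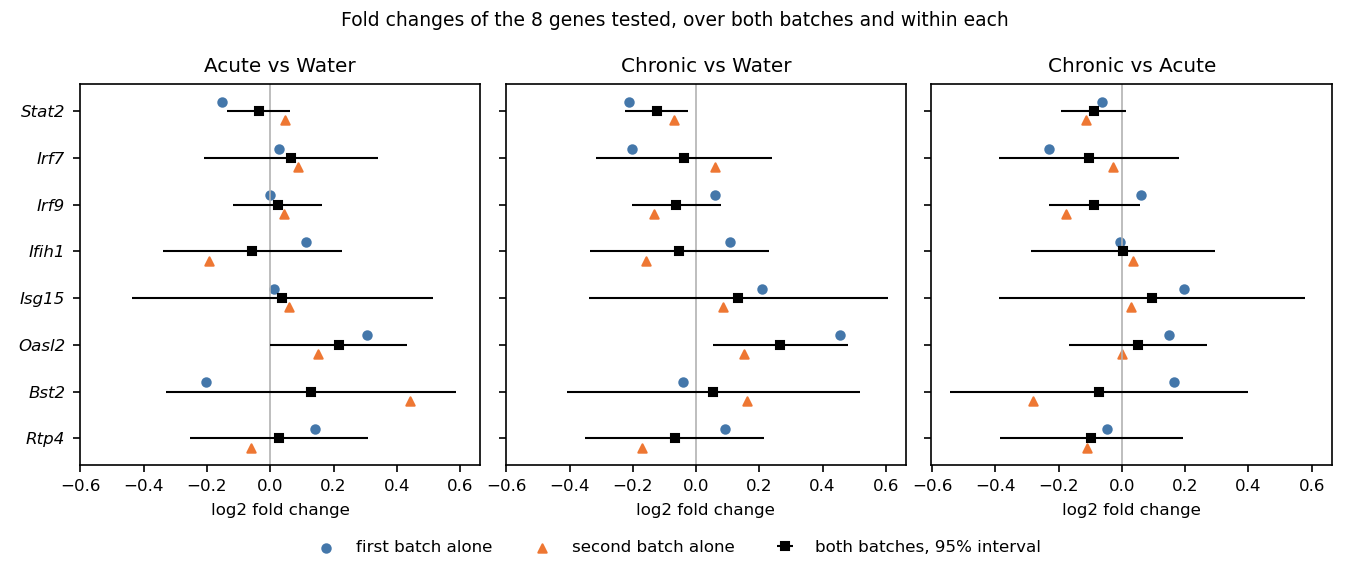
Log2 fold change (x axis) of each of the 8 genes tested (y axis) in the 3 comparisons of drinking groups. Squares and lines give edgeR's estimate over both batches with its 95% interval, and circles and triangles give the estimates from the first and the second batch alone. *Oasl2* lies to the right of 0 in both batches against Water, whereas *Bst2*, *Ifih1* and *Rtp4* change side between the batches in both comparisons with Water, *Stat2* in Acute mice, and *Irf7* and *Irf9* in Chronic mice. *Irf9* in Acute mice of the first batch lies on the zero line.

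*Stat2* and *Irf9*, the subunits of ISGF3, were the best measured of the 9. *Stat2* had 455, 450 and 422 normalized counts in Chronic mice 37, 38 and 39, against 494, 553, 454 and 550 in Water mice 40 to 43 and 408, 457, 453 and 532 in Acute mice 33 to 36. In the second batch the 6 Chronic mice ranged from 443 to 521 (median 477), the 6 Water mice from 465 to 529 (median 514), and the 5 Acute mice had 527, 527, 482, 539 and 524. Of the 9 Chronic mice, 8 lay below the Water mean once batch means were removed, and the ranges of the groups overlapped. The log2 fold change of *Stat2* was -0.12 in Chronic against Water mice (SE 0.05, 95% interval -0.22 to -0.03, unadjusted p = 0.0159, adjusted p = 0.350 in edgeR's test). Within the first batch it was -0.21, and within the second -0.07. An exact 2-sided permutation of the group labels within batches, over 32340 regroupings, gave an unadjusted p of 0.0167 for the same difference.

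In Acute mice *Stat2* differed from Water by a log2 fold change of -0.04 (SE 0.05, adjusted p = 0.850 in edgeR's test), with -0.15 from the first batch alone and 0.05 from the second. The difference between the batches was 0.20 with an unadjusted p of 0.0453 and an adjusted p of 0.999, and 4.13% of all genes tested had an unadjusted p under 0.05 in that test. It was the only one of the 8 genes to do so in any comparison, where the shares of all genes tested were 6.15% for Chronic against Water and 4.48% for Chronic against Acute mice. *Irf9* had fold changes of 0.02 in Acute (SE 0.07) and -0.06 in Chronic mice (SE 0.07) against Water. Its normalized counts ranged from 194 to 258 (median 213) in Water, from 183 to 240 (median 232) in Acute and from 167 to 243 (median 211) in Chronic mice, so that the groups covered nearly the same range. *Irf9* shares 123 exon bases with the neighbouring gene *Rnf31* on the same strand, and reads there cannot be assigned with certainty.

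*Irf7* and *Ifih1*, the amplifying transcription factor and the RNA sensor, differed little between groups. Normalized counts of *Irf7* ranged from 20.7 to 43.4 (median 28.3) in Water, from 25.6 to 38.9 (median 30.6) in Acute and from 19.5 to 37.7 (median 30.2) in Chronic mice. Its log2 fold changes against Water were 0.07 in Acute (SE 0.13) and -0.04 in Chronic mice (SE 0.14). *Irf7* overlaps *Phrf1* on the other strand over 45 exon bases. *Ifih1* ranged from 43.7 to 93.2 (median 67.3) in Water, from 35.5 to 105 (median 67.7) in Acute and from 51.2 to 82.9 (median 60.6) in Chronic mice. Its fold changes were -0.06 in Acute (SE 0.14) and -0.05 in Chronic mice (SE 0.14), and both were positive in the first batch, at 0.11 each. Within batches the Chronic mice lay closer together for *Ifih1* than the others, with an SD of 0.12 on the log2 scale against 0.38 in Water and 0.33 in Acute mice, a difference in spread that was not tested.

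*Oasl2* had the smallest p of the effector genes and the same direction in both batches. In the first batch its normalized counts were 65.0, 48.1, 55.4 and 46.1 in Water mice 40 to 43, 63.7, 79.7, 55.7 and 66.9 in Acute mice 33 to 36, and 70.4, 86.5 and 63.9 in Chronic mice 37 to 39. In the second batch the Water mice ranged from 40.6 to 57.8 (median 55.5), the Acute mice had 58.8, 55.4, 78.7, 50.0 and 53.4, and the Chronic mice ranged from 48.5 to 72.9 (median 57.6). The upper end of the alcohol groups reached past every Water mouse in each batch, while their lower ends overlapped with Water. Of the Acute mice 7 of 9, and of the Chronic mice 8 of 9, lay above the Water mean with batch means removed.

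The log2 fold change of *Oasl2* was 0.22 in Acute mice (SE 0.11, 95% interval 7.6e-04 to 0.43, unadjusted p = 0.0492, adjusted p = 0.523 in edgeR's test) and 0.27 in Chronic mice (SE 0.10, 95% interval 0.05 to 0.48, unadjusted p = 0.0166, adjusted p = 0.350). The exact permutation p was 0.0527 for Acute and 0.0197 for Chronic mice, both unadjusted. Within batches the Acute fold changes were 0.31 and 0.15, and the Chronic ones 0.45 and 0.15. Chronic and Acute mice differed by 0.05 (SE 0.11, 95% interval -0.17 to 0.27). Neither contrast with Water passed the adjustment over all genes.

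*Isg15*, *Bst2* and *Rtp4* had wide intervals around small fold changes. *Isg15* ranged from 8.54 to 28.7 normalized counts (median 15.3) in Water, from 9.60 to 24.1 (median 20.4) in Acute and from 9.29 to 29.9 (median 18.8) in Chronic mice. The 95% interval of its log2 fold change spanned -0.44 to 0.51 for Acute mice and -0.34 to 0.61 for Chronic mice, so that a change of 1 on the log2 scale lay outside both. *Rtp4* ranged from 24.6 to 46.9 (median 35.0) in Water, from 27.3 to 47.2 (median 38.0) in Acute and from 18.1 to 52.2 (median 34.5) in Chronic mice, with fold changes of 0.03 (SE 0.14) and -0.07 (SE 0.14). *Rtp4* shares 296 exon bases with *Gm45338* on the same strand.

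For *Bst2* the batches have to be read apart. In the first batch the Water mice 40 to 43 had 54.5, 40.1, 60.0 and 50.8 normalized counts, the Acute mice 33 to 36 had 68.2, 22.2, 25.0 and 63.1, and the Chronic mice 37 to 39 had 44.8, 36.0 and 69.3. The Acute mice thus formed a high and a low pair on either side of the Water mice. In the second batch the Water mice ranged from 17.0 to 26.3 (median 22.2), the Acute mice had 25.2, 36.6, 26.2, 25.5 and 33.1, and the Chronic mice ranged from 12.8 to 47.9 (median 20.6). Taken alone, the first batch gave a log2 fold change of -0.20 in Acute mice and the second one of 0.44, a difference of 0.65 (unadjusted p = 0.160, adjusted p = 0.999 in edgeR's test). Over both batches *Bst2* had fold changes of 0.13 in Acute (SE 0.22) and 0.05 in Chronic mice (SE 0.23).

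*Usp18*, the negative regulator, fell below the minimum of 10 counts and was fitted only when no minimum was set. Its counts were 18, 12, 10 and 5 in Water mice 40 to 43, 10, 6, 15 and 16 in Acute mice 33 to 36, and 11, 12 and 7 in Chronic mice 37 to 39. In the second batch they were 1, 12, 3, 7, 5 and 7 in Water mice 1 to 6, 13, 13, 9, 9 and 4 in Acute mice 1 to 5, and 9, 7, 24, 8, 12 and 7 in Chronic mice 1 to 6. The alcohol groups held neither of the lowest 2 counts, and all groups overlapped. Without the minimum, the log2 fold change of *Usp18* was 0.38 in Acute (SE 0.32, adjusted p = 0.692 in edgeR's test) and 0.44 in Chronic mice (SE 0.32, adjusted p = 0.703). The exact permutation p was 0.190 for Acute and 0.169 for Chronic mice. *Usp18* overlaps *Gm44148* on the other strand over 124 exon bases, where the mean count of *Gm44148* was 0.143.

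**Figure D2:**
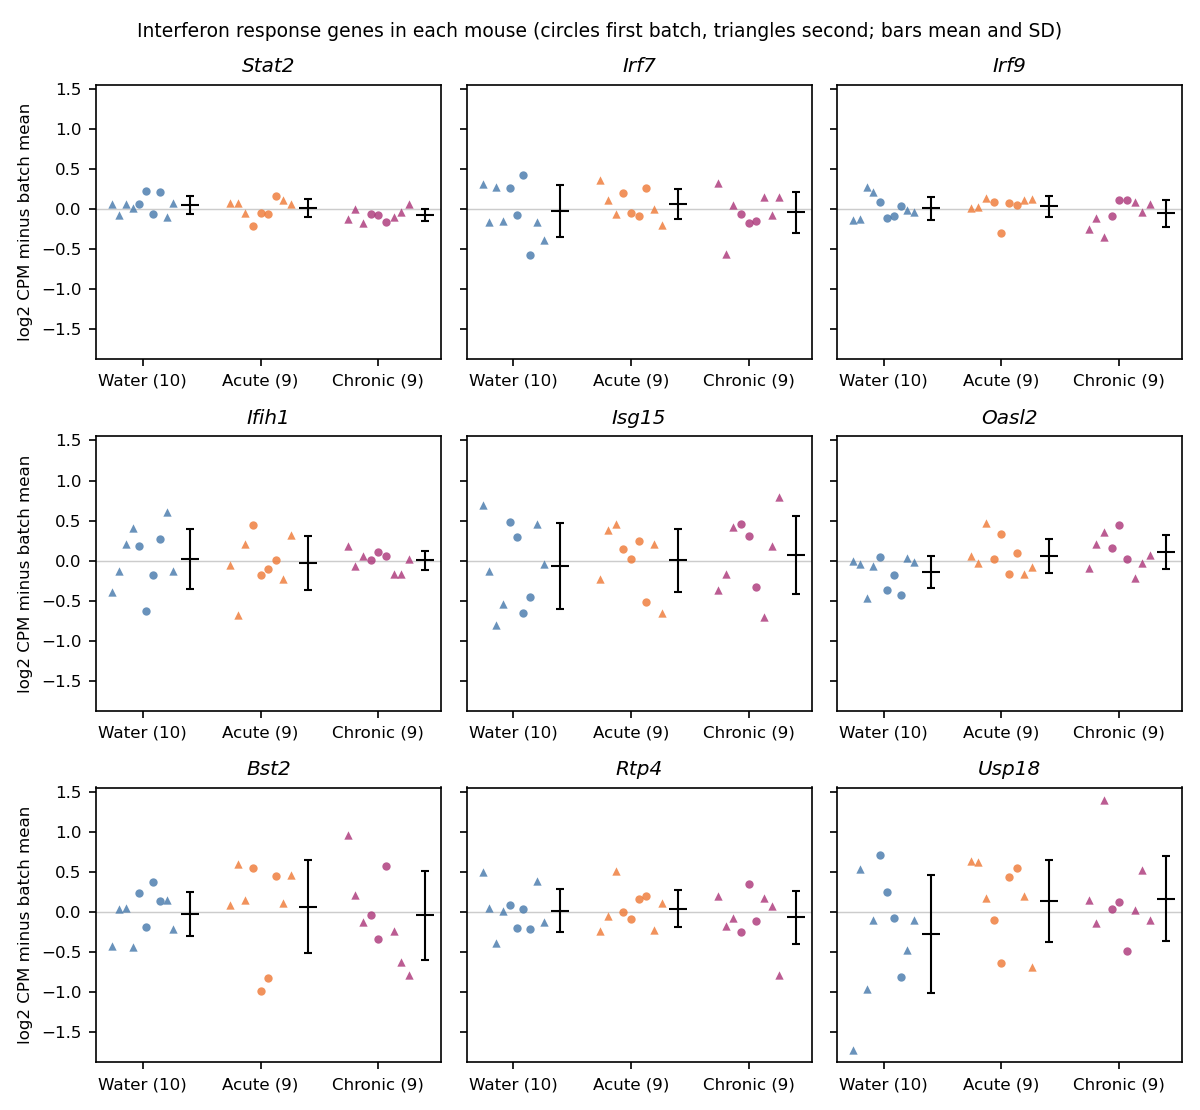
Level of each of the 9 genes in each mouse, as log2 CPM minus the mean of the mouse's batch (y axis), by drinking group (x axis, number of mice in parentheses). Circles are mice of the first batch and triangles of the second, and bars give the mean and SD of a group. All groups overlap for every gene, and *Usp18* in Chronic mouse 3, at 1.40, is the highest point.

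Different mice stood highest for different genes. With batch means removed, the highest mouse was Chronic mouse 3 for *Usp18*, at 1.40 on the log2 scale, Chronic mouse 1 for *Bst2* at 0.97, Chronic mouse 6 for *Isg15* at 0.80 and Water mouse 5 for *Ifih1* at 0.61. Acute mouse 3 was the highest for *Rtp4* at 0.51 and for *Oasl2* at 0.46. Water mouse 42 was the highest for *Irf7* at 0.43, Water mouse 3 for *Irf9* at 0.27 and Water mouse 41 for *Stat2* at 0.22. The 9 genes thus named 8 different mice, in all 3 groups. Of these, 4 stood among the first 3 of the 28 mice for the mean level of a cell type list. Such a place was also held by Acute mice 5 and 33, Chronic mouse 38 and Water mice 1 and 40, which were highest for no gene. Water mouse 5 was at place 1 for choroid plexus and ependyma genes and for red blood cell genes and at place 3 for mural and fibroblast genes. Chronic mouse 1 was at place 2 for the first 2 of these lists and at place 4 for the last. Water mouse 3 was at place 2 for microglia genes, and Acute mouse 3 at place 2 for endothelial and place 3 for microglia genes. Low places occurred as well, with Water mouse 5 at place 28 for microglia and place 26 for endothelial genes. Chronic mouse 1 was at place 22 for endothelial genes, and Water mouse 3 at place 26 for red blood cell genes. The part of these tissues in the raised values was not tested.

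The 24 counts of *Usp18* in Chronic mouse 3 have an exact 95% Poisson interval of 15.4 to 35.7, which covers counting error only, and 25 of the other 27 mice had a count below it. The same mouse was the lowest of the 28 for *Irf9*, at -0.35, and among the top 3 for *Oasl2*, at 0.35. Chronic mouse 6, the highest for *Isg15* with 28 counts (interval 18.6 to 40.5), was the lowest for *Rtp4*, at -0.78. Water mouse 1 had 1 count of *Usp18*, the lowest, and stood second for *Isg15* at 0.70 and for *Rtp4* at 0.50. No mouse was among the top 3 of the 28 for more than 3 of the 9 genes, and Acute mouse 3 was the one that reached 3.

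Averaged over the 8 genes tested, each scaled to its SD, mice ranged from -0.52 in Acute mouse 34 to 0.77 in Acute mouse 3. This mean ranged from -0.40 to 0.61 (median -0.13) in Water, from -0.52 to 0.77 (median 0.14) in Acute and from -0.34 to 0.38 (median -0.11) in Chronic mice. Both ends therefore fell within the Acute group. Acute mouse 3 lay above its batch mean for 7 of the 9 genes and was also the highest of the 28 for the mean level of 55 other interferon-stimulated genes, at 0.17. On the same log2 scale it stood at 1.30 for choroid plexus and ependyma genes (place 5 of 28), 0.34 for red blood cell genes (place 4), 0.10 for endothelial genes (place 2), 0.09 for microglia genes (place 3) and 0.05 for mural and fibroblast genes (place 11), and their part in its levels was not tested. Water mouse 40 was second at 0.61 and was the one mouse that lay above its batch mean for all 9 genes. It stood at place 3 for endothelial, place 5 for mural and fibroblast and place 3 for the other interferon-stimulated genes.

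**Figure D3:**
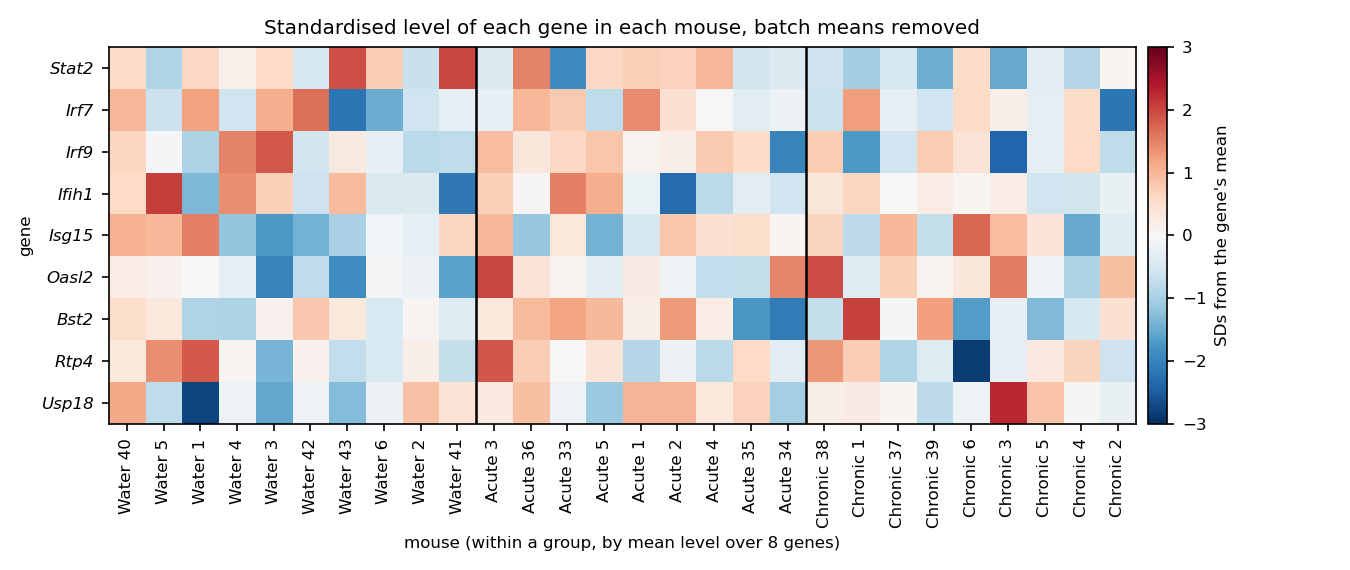
Level of each gene (rows) in each mouse (columns), in SDs from the gene's mean with batch means removed. Red is higher and blue lower, vertical lines separate Water, Acute and Chronic mice, and mice are ordered within a group by their mean over the 8 genes tested. High and low values lie scattered over rows, and no column is red throughout except the pale one of Water mouse 40.

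The 9 genes showed little shared movement across the 28 mice. Over their 36 pairs, Pearson's r of the levels with batch means removed ranged from -0.43 to 0.46 with a median of -0.03. At an unadjusted permutation p under 0.05, within batches and with 100000 resamples, there were 2 pairs and none after Benjamini-Hochberg adjustment over the 36 pairs. *Isg15* and *Oasl2* had r = 0.46 (permutation p = 0.0127, adjusted p = 0.459) and Spearman's rho = 0.52 (p = 0.0055, adjusted p = 0.199). Without the 2 mice farthest from the median of *Isg15*, r was 0.34, and within batches it was 0.31 and 0.58. *Stat2* and *Oasl2* had r = -0.43 (permutation p = 0.0338, adjusted p = 0.569) and rho = -0.26 (p = 0.199, adjusted p = 0.742). Without the 2 mice farthest from the median of *Stat2*, that r moved to -0.23, and within batches it was -0.50 and -0.35.

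Members were also set against the mean level of 6 gene lists, those of microglia, endothelial cells, mural cells and fibroblasts, choroid plexus and ependyma, red blood cells, and 55 other interferon-stimulated genes. Of these 54 relations, 6 had a Pearson permutation p under 0.05 after adjustment over the 54, each at 0.0467 and with unadjusted values between 9.8e-04 and 0.0052. The 6 lists were picked from a larger number after values were seen, and the adjustment does not count that choice, so the correlations stand as descriptions. *Oasl2* was higher in mice with higher levels of the other interferon-stimulated genes (r = 0.56, rho = 0.49 with permutation p = 0.0115 and adjusted p = 0.0778), with r = 0.54 and 0.57 within batches and 0.50 without the 2 farthest mice. *Ifih1* had a like relation, with r = 0.53 and rho = 0.51 (permutation p = 0.0068, adjusted p = 0.0739), r = 0.51 and 0.54 within batches and 0.46 without the 2 farthest mice. *Stat2* ran the other way, with r = -0.55 and rho = -0.55 (permutation p = 0.0038, adjusted p = 0.0599), r = -0.63 and -0.49 within batches and -0.50 without the 2 farthest mice. Removing the group means left these 3 correlations at 0.58, 0.50 and -0.56.

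The other 3 of the 6 relations were those of *Rtp4* and *Ifih1* with the mural and fibroblast list and of *Rtp4* with the choroid plexus and ependyma list. *Rtp4* followed the mural and fibroblast list, with r = 0.57 and rho = 0.68 (permutation p = 1.2e-04, adjusted p = 0.0065), r = 0.64 and 0.60 within batches and 0.62 without the 2 farthest mice. *Ifih1* was related to that list with r = 0.52 and rho = 0.40 (permutation p = 0.0363, adjusted p = 0.163), with r = 0.58 and 0.49 within batches and 0.50 without the 2 farthest mice. *Rtp4* also followed the choroid plexus and ependyma list over all mice (r = 0.56, rho = 0.50, permutation p = 0.0110, adjusted p = 0.0778, and r = 0.48 without the 2 farthest mice). That relation did not hold within the first batch, where r was -0.10, against 0.68 in the second.

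For *Bst2*, r with the choroid plexus and ependyma list was 0.47 (permutation p = 0.0083, adjusted p = 0.0505) and rho 0.54 (p = 0.0030, adjusted p = 0.0599), with r = 0.70 and 0.44 within batches and 0.40 without the 2 farthest mice. With red blood cell genes, *Bst2* had r = 0.47 (permutation p = 0.0109, adjusted p = 0.0589) and rho = 0.46 (p = 0.0144, adjusted p = 0.0864), with 0.86 and 0.28 within batches and 0.44 without the 2 farthest mice. With the mural and fibroblast list its r was 0.23 (permutation p = 0.256, adjusted p = 0.507). *Stat2* ran against the mural and fibroblast list (r = -0.53, permutation p = 0.0069, adjusted p = 0.0505, and rho = -0.55, p = 0.0044, adjusted p = 0.0599), with -0.55 and -0.52 within batches and -0.45 without the 2 farthest mice. It also ran against the red blood cell genes (r = -0.45, permutation p = 0.0084, adjusted p = 0.0505, and rho = -0.48, p = 0.0094, adjusted p = 0.0778), with -0.42 and -0.55 within batches and -0.39 without the 2 farthest mice. None of these relations of *Bst2* and *Stat2* passed the adjustment. All 6 genes of the choroid plexus and ependyma list passed the minimum of 10 counts, and their summed level spanned 29.0 to 3974 CPM over the Water, 19.7 to 3525 CPM over the Acute and 17.9 to 4261 CPM over the Chronic mice. None of the 6, and none of the 5 red blood cell genes, had an unadjusted p under 0.05 in either comparison with Water. Of the 10 mural and fibroblast genes, 0 had one in Acute mice, and 2 were lower in Chronic mice, against 5.65% of all genes tested. The median log2 fold change of that list against Water was -0.01 in Acute and 0.07 in Chronic mice, so that in Chronic mice it ran opposite to those 2 genes. Of the 10 endothelial genes, 1 was higher in Acute and 2 in Chronic mice, against 5.07% and 4.81%. The median log2 fold change of the endothelial list was nevertheless -6.7e-06 in Acute and -0.04 in Chronic mice. Of the 12 microglia genes 1 was higher in Acute and 1 lower in Chronic mice, against 5.07% and 5.65%, with list medians of 0.0075 and -0.025. Among the microglia and endothelial lists, no relation with the 9 genes had an unadjusted permutation p under 0.05. The part of these tissues in the levels of *Rtp4*, *Bst2*, *Ifih1* and *Stat2* was not tested, and fewer cells of a type and less RNA per cell cannot be told apart in such punches.

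**Figure D4:**
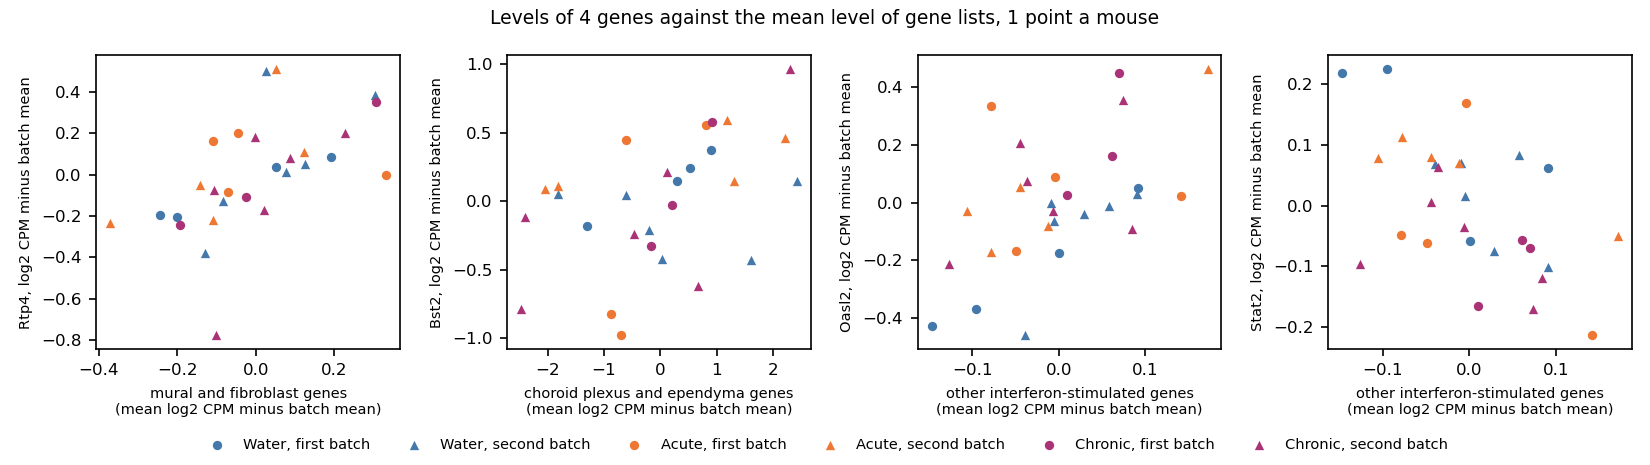
Levels of *Rtp4*, *Bst2*, *Oasl2* and *Stat2* (y axes) against the mean level of the mural and fibroblast, the choroid plexus and ependyma, and the other interferon-stimulated genes (x axes), all as log2 CPM minus batch mean. Each point is a mouse, coloured by drinking group, with circles for the first batch and triangles for the second. The first 3 clouds slope upward, with r = 0.57, 0.47 and 0.56, and that of *Stat2* slopes downward with r = -0.55.

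Most leukocyte markers were near 0: of 11, 6 had a mean below 1 count, among them *Cd3e*, *Cd3d*, *S100a8*, *S100a9* and *Ncr1*, and the 1 that passed the minimum of 10 counts was *Siglech*, which the microglia list also holds. The neuron, astrocyte and microglia lists were present in full, and the 6 amygdala region genes summed to between 246 and 416 CPM. The 7 markers of the striatum, a region beside the amygdala, summed to between 404 and 1600 CPM in Water and between 478 and 1054 CPM in Chronic mice. Their median log2 fold change was -0.37 in Chronic mice, where 2 of the 7 were lower at an unadjusted p under 0.05, against 5.65% of all genes tested. Of the 10 astrocyte genes 4 were higher in Acute mice at that p, against 5.07% of all genes tested, and in Chronic mice 2 were higher and 1 lower, against 4.81% and 5.65%. The part of either list in the values of *Stat2* and *Oasl2* was not tested.

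The genes upstream of ISGF3 were measured alongside. Of the interferons, *Ifnb1* and *Ifna4* had 0 counts over all 28 mice, which allows up to 3 counts or 0.0052 CPM, and *Ifnk*, *Ifne* and *Ifng* had 1, 2 and 4 counts in all. Both chains of the receptor were well measured. *Ifnar1* had 747 ± 45.3 normalized counts (SD, n = 9) in Acute and 788 ± 39.4 (n = 10) in Water mice, with a log2 fold change of -0.08 (SE 0.03, unadjusted p = 0.0252, adjusted p = 0.485 in edgeR's test). *Ifnar2* had a fold change of 0.02 in Acute (SE 0.07) and 0.12 in Chronic mice (SE 0.07).

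The kinases *Jak1* and *Jak2* had values below Water and *Tyk2* did not, with none passing the test. In Acute mice *Jak1* had 3610 ± 190 normalized counts (SD, n = 9) against 3794 ± 185 (n = 10) in Water, a log2 fold change of -0.07 (SE 0.03, unadjusted p = 0.0227, adjusted p = 0.477 in edgeR's test). In Chronic mice *Jak2* had 857 ± 94.1 (n = 9) against 941 ± 49.8 (n = 10), a fold change of -0.13 (SE 0.05, unadjusted p = 0.0157, adjusted p = 0.349 in edgeR's test). Of the 6 genes of the JAK-STAT list, 5 had negative fold changes in Acute and 4 in Chronic mice, with medians of -0.06 and -0.07 and none called. Among all genes tested, fold changes were positive for 50.6% in Acute and 51% in Chronic mice.

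Over all 6 lists of the pathway, 101 genes besides the 9 reached the minimum count, and none was called in any comparison by edgeR's test or by DESeq2 without its filter. At an unadjusted p under 0.05, 8 were higher and 3 lower in Acute mice, 5 were higher and 4 lower in Chronic mice, and 2 were higher in Chronic than in Acute mice, beside the shares of all genes given above. Their median log2 fold changes were -0.02, 0.0076 and 0.02. Among the 55 other interferon-stimulated genes, 25 were positive in Acute and 27 in Chronic mice, with medians of -0.0053 and -0.0078. The 14 genes of antigen presentation had medians of 0.06 in Acute and 0.09 in Chronic mice, with 10 and 9 positive. The shares of positive genes among all genes tested were 50.6% in Acute and 51% in Chronic mice. *Tmem173* and *H2-Eb1* are not listed for both batches and were not used here.

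In Acute mice, the genes with the smallest unadjusted p were the nucleotide kinase gene *Cmpk2*, *Epsti1* and the transcription factor gene *Irf5* on the higher side, with *Slfn5* after *Jak1* and *Ifnar1* on the lower. *Cmpk2* had 495 ± 26.6 normalized counts (SD, n = 9) against 454 ± 34.5 (n = 10) in Water, a log2 fold change of 0.13 (SE 0.05, adjusted p = 0.460 in edgeR's test), with 0.18 from the first batch and 0.09 from the second. *Epsti1* had 18.5 ± 3.79 (n = 9) against 13.1 ± 5.18 (n = 10), a fold change of 0.48 (SE 0.19, adjusted p = 0.462 in edgeR's test), with 9 of 9 Acute mice above the Water mean and 0.45 and 0.51 in the batches. *Irf5* had a fold change of 0.26 (SE 0.10), with 0.10 and 0.37, and *Slfn5* one of -0.18 (SE 0.08), with -0.08 and -0.27.

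In Chronic mice, they were the proteasome activator gene *Psme2*, the Toll-like receptor adaptor gene *Myd88* and *Ly6e* on the higher side, and *Slfn2*, besides *Jak2*, on the lower. *Psme2* had 323 ± 22.4 normalized counts (SD, n = 9) against 291 ± 25.0 (n = 10) in Water, a log2 fold change of 0.16 (SE 0.05, adjusted p = 0.241 in edgeR's test), with 8 of 9 Chronic mice above the Water mean and 0.04 from the first batch and 0.22 from the second. *Myd88* had 107 ± 9.40 (n = 9) against 91.2 ± 7.07 (n = 10), a fold change of 0.23 (SE 0.07, adjusted p = 0.243 in edgeR's test), with 9 of 9 Chronic mice above the Water mean and 0.23 in each batch. *Ly6e* had a fold change of 0.10 (SE 0.05), with 0.04 and 0.12 in the batches. *Slfn2*, with a mean of 10.2 counts, had one of -0.60 (SE 0.26), with -0.12 and -0.92. Between Chronic and Acute mice *Ifi203* differed by 0.25 (SE 0.11; 0.10 and 0.33 in the batches) and *Samd9l* by 0.23 (SE 0.11; 0.24 and 0.22), both with an adjusted p of 0.998 in edgeR's test.

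**Figure D5:**
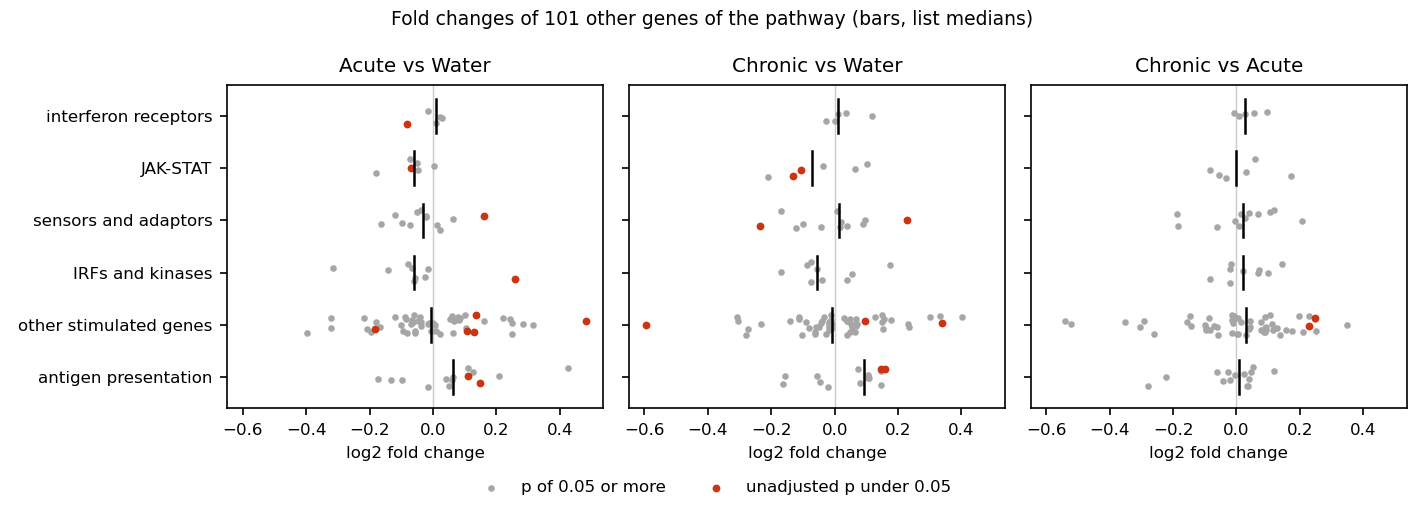
Log2 fold changes (x axis) of 101 other genes of the interferon pathway in 6 lists (y axis) for the 3 comparisons. Each point is a gene, red at an unadjusted p under 0.05, and bars mark list medians. Points lie on both sides of 0 in each list that holds over 6 genes, with 8 red points to the right and 3 to the left in Acute against Water.

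The genes whose levels across the 28 mice were most like the mean of the 8 members were *Syap1* (r = 0.65, rho = 0.64), *4930523C07Rik* (r = 0.63, rho = 0.65) and *Tor3a* (r = 0.63, rho = 0.61). They were followed by *Aco1*, *Vwa5a*, *Col1a1*, *Hbp1*, *Gm10785*, *Bicc1* and *Aldh1l1*, with r from 0.61 down to 0.59. Without the 2 mice farthest from the median of that mean, r was 0.57, 0.62 and 0.51 for the first 3. These values describe the 10 highest of all genes tested, and all points share each library's normalization.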

How the data were processed

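RNA-seq counts from the amygdala of 28 female mice were used. The authors ran Salmon 0.14.1 on paired-end reads (GRCm38), summed transcripts to GENCODE M21 genes with tximport, and deposited whole-number estimated counts, 1 table per batch, with no adjustment for batch. These sources are the study's methods and the submitters' processing notes, which also name FastQC 0.11.8. Estimated counts divide reads between overlapping genes, and 4 of the 9 genes overlap another. The tables hold 50051 and 51073 genes and were joined on the identifier without its version. In the second, 253 identifiers are not in M21 and 773 have another version, so its annotation was in part another release, which is not given in the sources used here.

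In R 4.3.3, edgeR 4.0.16 was run as a quasi-likelihood test (TMM, batch as a covariate, all 3 groups fitted together) on the 16266 genes that averaged 10 counts or more. P-values were adjusted over these genes by the Benjamini-Hochberg method, with a threshold of 0.05. Log2 CPM used a prior count of 2. Scripts were tested on simulated data. Alternatives were DESeq2 1.42.0 with batch or after ComBat-seq (sva 3.50.0, the study's route), each batch alone, RLE normalization, no minimum or one of 100 counts, only the groups compared, a replicate block, exact permutation, and 1 mouse left out at a time. DESeq2 without independent filtering was added after the values were seen. Of 55 pairs of mice within a group and batch, none looked like a duplicated library.

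The members and lists were chosen with earlier results of these data known. The text names all members, called genes of the pathway lists and, per comparison, up to 3 list genes in each direction with the smallest unadjusted p under 0.05 whose direction both batches share, and the 10 genes most like the members' mean. *Ifnar2*, *Tyk2*, the interferon genes, overlapping neighbours and the leukocyte markers were named outside this rule, after their values were seen. The 6 lists set against the members were picked likewise. Intervals of counts and limits of 0 counts cover counting error only. Some items that this rule names are not reported here.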

Additional observations from a re-analysis of the deposited data

Results flagged for a closer look

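In each of the 27 sets of 1 gene in 1 drinking group, the mouse at either end was compared with its nearest neighbour by Dixon's ratio, which chance exceeds in about 1 in 20 groups, and 1 set was singled out. Acute mouse 34 had an *Irf9* level of -0.30 on the log2 scale with batch means removed, while the next lowest of the 9 Acute mice was at 0.02, so that the gap took up a share of 0.724 of the group's range. The same mouse had the lowest *Bst2* level of the 28 and the lowest mean over the 8 genes tested.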

How the results depend on the processing

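No member and no gene of the pathway lists was called under any alternative, 1 mouse left out included, where each count ranged from 0 to 0. DESeq2's default filter left most members without an adjusted p against Water, and with it off the smallest were 0.515 in Acute and 0.335 in Chronic mice. Replicate numbers do not pair the mice: over 16 pairs that share a number, r of their deviations had a median of -0.0080 and exceeded 0.1 in 4. With a replicate block, the fold change of *Rtp4* in Acute against Water mice was -0.012, and the block changed no call and no other direction. Of 270 member fold changes under alternatives other than leaving a mouse out, 254 kept their direction. The other 15 that changed it follow. Against Water, in the first batch alone, they were Acute *Irf9* -1.1e-05, *Ifih1* 0.11 and *Bst2* -0.20, and Chronic *Irf9* 0.061, *Ifih1* 0.11, *Bst2* -0.041 and *Rtp4* 0.092. In the second batch alone, these were Acute *Stat2* 0.046 and *Rtp4* -0.059, and Chronic *Irf7* 0.059. Between Chronic and Acute mice, they were *Irf9* 0.061, *Ifih1* -0.0060 and *Bst2* 0.16 in the first batch and *Oasl2* -8.3e-05 in the second. The difference of log2 CPM means used for the permutation test was -0.017 for *Bst2* in Chronic against Water mice. The cause was not tested.

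With 1 mouse left out, 31 of 672 fold changes changed direction. The ranges against Water were -0.13 to 0.014 for *Ifih1*, -0.037 to 0.14 for *Isg15* and -0.043 to 0.089 for *Rtp4* in Acute mice, and -0.10 to 0.13 for *Bst2*, -0.12 to 0.027 for *Ifih1*, -0.093 to 0.025 for *Irf7* and -0.14 to 0.0039 for *Rtp4* in Chronic mice. Between Chronic and Acute mice they were -0.23 to 0.0073 for *Bst2*, -0.065 to 0.078 for *Ifih1*, -0.012 to 0.17 for *Isg15* and -0.0059 to 0.11 for *Oasl2*. *Oasl2* stayed between 0.15 and 0.25 in Acute and between 0.21 and 0.30 in Chronic mice, and *Stat2* between -0.14 and -0.10 in Chronic mice. Some fold changes against Water kept their direction but moved widely. In Acute mice *Bst2* ranged from 0.043 to 0.25 and *Irf7* from 0.0033 to 0.13, and in Chronic mice *Isg15* ranged from 0.024 to 0.24. RLE normalization and no minimum count moved the highest mouse of each gene by less than 1 SD. Counting error limits *Usp18*, *Isg15* and *Irf7* most.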
